A study of Mus musculus with 10 samples.

Results

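The interferon-inducible guanylate-binding proteins (GBPs) and immunity-related GTPases (IRGs) were followed by 10 genes, namely Gbp2, Gbp3, Gbp4, Gbp5, Gbp6 and Gbp7 among the GBPs and Igtp, Irgm1, Irgm2 and Iigp1 among the IRGs. They were taken by gene symbol from 2 tables of 48897 rows each, and all 10 were present in both. The first table held EpCAM+ CD45- cells sorted from the prostate epithelium of 3-month-old C57BL/6 mice. Its 3 control libraries (A, B and C) came from mice without the Arid1a deletion, and its other 3 (A, B and C, called the libraries labelled Arid1a KO) from mice whose genotype adds Arid1aPC-/-. All 6 mice were genetically engineered with floxed alleles and a Cre driven by a probasin promoter, so the controls were not wild type. The second table held Myc-CaP, a mouse prostate cancer line of the FVB strain that carries a c-Myc transgene, with 2 empty vector (EV) libraries and 2 from cells in which Arid1a was targeted by lentiviral CRISPR (Arid1a KO). Whether the 2 knockout libraries are separate guides, clones or passages of the line is not stated, so p-values there measure the spread between libraries only. The labels give the source of the Myc-CaP samples as the cell line. The study describes sequencing of subcutaneous Myc-CaP tumours as well.

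GBPs are large GTPases that assemble on the membranes of vacuoles holding pathogens, and on bacteria themselves, and help to break them open. IRGs act on the same vacuoles. Irgm1, Irgm2 and Igtp (also called Irgm3) are the regulatory IRGM proteins, which sit on the cell's own membranes and hold the others inactive there, whereas Iigp1 (Irga6) belongs to the effector class that loads onto the vacuole. Interferon-gamma induces both families through gamma-activated sites (GAS elements) and through IRF1, while type I interferon acts through a complex with STAT2 and IRF9 at interferon-stimulated response elements (ISREs). Most studies of these genes have used macrophages and fibroblasts.

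The depth of the libraries was read from the steps between values, since each value of a gene is a whole number of reads times a constant of its library. Whole reads came out for 99.7% of the epithelium genes tried and 99.8% of the Myc-CaP genes tried, with a tolerance of 0.002 on the ratio between libraries, and summed to between 24727885 and 30291932 reads per epithelium library and between 16141881 and 18083255 per Myc-CaP library. Arid1a itself checked the labels. It was not lower in the epithelium libraries from Arid1aPC-/- mice, at 31.1, 28.8 and 30.8 RPKM against 27.8, 21.9 and 26.5 RPKM in the controls. In Myc-CaP it fell from 60.5 and 61.0 TPM to 39.5 and 40.3 TPM, by 0.59 on the log2 scale (limma adjusted p = 0.0102, and between 0.0984 and 0.111 with any 1 library left out). Since the files hold 1 value per gene, loss of single exons could not be seen, and epithelium directions below compare libraries by their labels.

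The GBP members lay in 2 clusters and the IRG members on 2 chromosomes. On GRCm38 (GENCODE M21), Gbp5 (chr3:142493978-142522344), Gbp7 (chr3:142530342-142550149), Gbp3 (chr3:142560026-142573209) and Gbp2 (chr3:142620602-142638008) followed each other on the plus strand, and Gbp4 (chr5:105115767-105139586) and Gbp6 (chr5:105270702-105293698) lay on the minus strand of chromosome 5. Irgm1 (chr11:48861968-48871683, minus strand), Igtp (chr11:58199556-58207591) and Irgm2 (chr11:58199618-58222782, both on the plus strand) lay on chromosome 11, where the gene models of Igtp and Irgm2 overlapped, and Iigp1 lay on a further chromosome. All are protein coding. Close copies limit how far reads can be assigned. Of the 75-base stretches in the Gbp6 transcripts, 67.3% also occurred in transcripts of another gene, mainly Gm43302 and Gbp10, so the value of Gbp6 is uncertain. The share was 11.3% for Gbp7, 7.8% for Igtp (all with Irgm2), 4.78% for Irgm2, 3.08% for Gbp4, 2.06% for Gbp3, 0.955% for Gbp2, 0.578% for Gbp5 and 0 for Irgm1 and Iigp1. The gene model of Gbp4 also overlapped those of Gbp8 and Gbp9 on the same strand.

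Promoter sequence was read for 7 of the 10 members. It is shown because letters of the interferon elements can be read in it. A link between those letters and the rise of these genes was not tested. Each run gives the 170 bases before the RefSeq start (GRCm38.p6) in the direction of transcription, at chr3:142620493-142620662 for Gbp2, chr3:142559874-142560043 for the first of 2 Gbp3 entries, chr3:142496764-142496933 for Gbp5, chr3:142530166-142530335 for Gbp7, chr11:58199386-58199555 for Igtp, chr11:48871421-48871590 (minus strand) for Irgm1 and chr11:58214807-58214976 for Irgm2. Capitals mark GAAANNGAAA on either strand, called ISRE-like, and TTCNNNGAA, called GAS-like, which reads the same on both strands.
Gbp2: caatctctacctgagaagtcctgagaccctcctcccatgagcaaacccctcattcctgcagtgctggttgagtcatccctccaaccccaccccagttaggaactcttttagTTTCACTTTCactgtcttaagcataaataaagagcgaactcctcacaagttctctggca
Gbp3: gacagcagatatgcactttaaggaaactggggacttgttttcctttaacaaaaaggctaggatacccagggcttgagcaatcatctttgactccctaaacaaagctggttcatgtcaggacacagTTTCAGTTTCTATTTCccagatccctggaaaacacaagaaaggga
Gbp5: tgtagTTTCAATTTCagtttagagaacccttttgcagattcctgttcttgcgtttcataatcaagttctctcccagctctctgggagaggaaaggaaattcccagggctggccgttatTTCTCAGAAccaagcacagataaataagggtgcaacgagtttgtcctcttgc
Gbp7: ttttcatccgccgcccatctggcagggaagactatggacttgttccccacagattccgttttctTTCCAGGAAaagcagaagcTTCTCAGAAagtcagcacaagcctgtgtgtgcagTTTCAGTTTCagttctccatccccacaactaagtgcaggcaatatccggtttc
Igtp: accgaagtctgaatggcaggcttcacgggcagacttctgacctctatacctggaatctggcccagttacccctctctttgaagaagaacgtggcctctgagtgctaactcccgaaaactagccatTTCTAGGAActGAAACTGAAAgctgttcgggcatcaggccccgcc
Irgm1: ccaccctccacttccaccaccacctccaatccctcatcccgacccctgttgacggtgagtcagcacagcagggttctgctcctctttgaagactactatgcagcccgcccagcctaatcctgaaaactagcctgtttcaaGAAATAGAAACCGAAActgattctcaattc
Irgm2: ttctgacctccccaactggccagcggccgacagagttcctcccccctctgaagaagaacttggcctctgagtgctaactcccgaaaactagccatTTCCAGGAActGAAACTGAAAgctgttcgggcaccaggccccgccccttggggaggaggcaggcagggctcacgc

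All 7 promoters held ISRE-like letters, which 3.44% of 32851 promoter entries of the same 300 bases (250 before to 50 after the start) held. GAS-like letters were in 4 of the 7, those of Gbp5, Gbp7, Igtp and Irgm2, and in 8.3% of all entries, and both were in 0.454% of all entries. The ISRE-like letters began between 64 and 24 bases before the start in all but Gbp5, where they began 165 bases before it. Gbp3 and Irgm1 each carried an overlapping pair. In Gbp2, Gbp3, Gbp5 and Gbp7 the ISRE-like letters read against the direction of transcription, and in the IRG genes Igtp, Irgm1 and Irgm2 along it. In Igtp and Irgm2 the GAS-like letters ended just before the ISRE-like letters, and over 90 bases around them the 2 promoters were identical at 86 positions (95.6%). The second Gbp3 entry, from another start, held neither. Promoter entries were also read for other GBP and IRG genes. Among those tested in Myc-CaP, Tgtp1 and Gm12250 held both kinds of letters, and Ifi47 and Irgq held neither. In that line Tgtp1 and Ifi47 were called higher, and Gm12250 and Irgq were not. All of these are matches of letters only, and binding was not measured here.

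**Figure D1:**
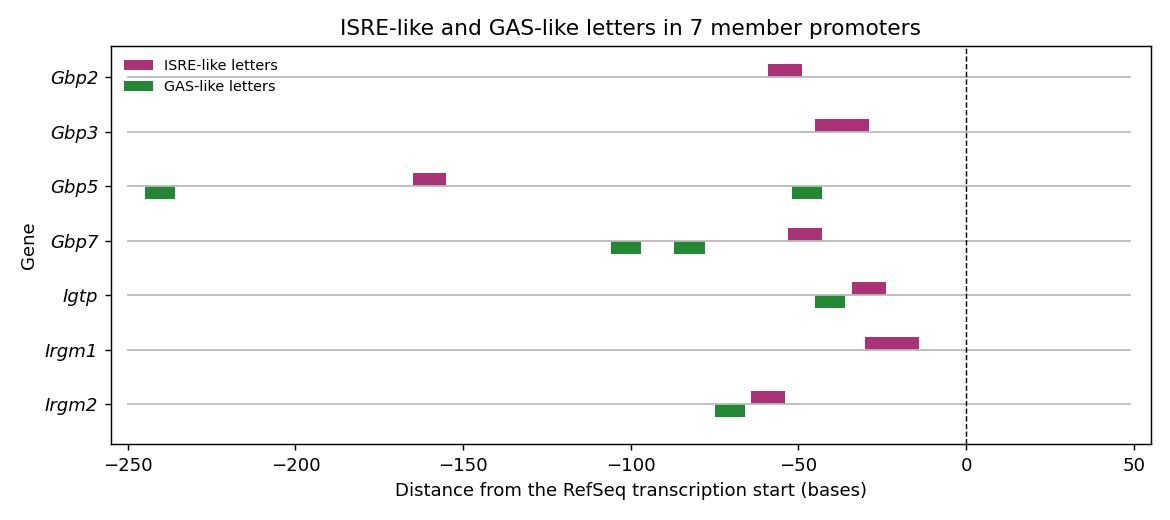
Position of ISRE-like (purple) and GAS-like (green) letters in 7 member promoters, with the distance from the RefSeq start in bases on the x axis and 1 gene per row. The ISRE-like letters of 6 genes lie within 64 bases before the start, and those of Gbp5 lie further away, from 165 bases before it.

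In the sorted epithelium, 9 of the 10 members rose with the Arid1a KO label, and for all 9 each of those libraries lay above each control library. Gbp7 and Gbp5 changed most, by 2.33-fold and 1.95-fold of the group means, and the other 7 by 1.18-fold to 1.45-fold. Iigp1, the effector IRG, did not pass. Calls came from limma on log2(RPKM + 1) at a Benjamini-Hochberg adjusted p under 0.05 over 16275 genes. By that rule 27.5% of all genes tested were called higher, and 32.4% had every library labelled Arid1a KO above every control library, so a rise was common in this comparison. The members had a median log2 fold change of 0.35, against -0.03 over all genes tested. The study's thresholds, 1.5-fold or more with an unadjusted p under 0.05, were applied here to the limma values on log2(RPKM + 1). The study's own p-values came from another test, DEGseq. By these thresholds only Gbp5 and Gbp7 passed, 2 of the 10 members against 11.8% of all genes called higher.

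The 4 GBPs of the chromosome 3 cluster were read first. Gbp7 measured 5.42, 4.14 and 4.99 RPKM in the control libraries (A, B and C in this order) against 11.5, 11.1 and 11.3 RPKM in those labelled Arid1a KO. Gbp5, which promotes inflammasome assembly, measured 4.05, 3.54 and 4.29 RPKM in the controls and 7.39, 7.78 and 7.93 RPKM in those labelled Arid1a KO. For both genes the gap between the groups was several times the spread within them, with a log2 fold change of 1.08 ± 0.09 (SE, limma adjusted p = 9.38e-05) for Gbp7 and of 0.81 ± 0.08 (SE, limma adjusted p = 0.000174) for Gbp5. Gbp2, the most abundant GBP of the epithelium, measured 22.9, 22.8 and 24.2 RPKM against 31.3, 34.6 and 31.5 RPKM, and Gbp3 measured 10.7, 13.1 and 11.2 RPKM against 16.7, 16.6 and 17.4 RPKM. Their log2 fold changes were 0.46 ± 0.06 (SE, limma adjusted p = 0.000784) and 0.50 ± 0.08 (SE, limma adjusted p = 0.00152), and neither gene overlapped between the groups.

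The 2 GBPs of chromosome 5 were lower in level and moved less. Gbp4 measured 1.99, 1.81 and 2.41 RPKM in the controls and 2.5, 3.04 and 2.72 RPKM in the libraries labelled Arid1a KO, so that the highest control library came close to the lowest of the others. Its log2 fold change of 0.29 ± 0.10 (SE) passed narrowly (limma adjusted p = 0.0420). The call was lost with no filter on low values (adjusted p = 0.101) and when any 1 of control A, control B, Arid1a KO B or Arid1a KO C was left out (adjusted p from 0.0804 to 0.136). Gbp6 measured 3.43, 2.99 and 3.33 RPKM against 3.88, 4.33 and 4.59 RPKM, a log2 fold change of 0.31 ± 0.09 (SE, limma adjusted p = 0.0169), with the groups just apart. It did not pass without Arid1a KO library B (adjusted p = 0.0553) or C (adjusted p = 0.0516).

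Among the IRGM regulators, Irgm1 was the most abundant of all members at 32.8, 30.1 and 30.7 RPKM in the controls, and it measured 38.0, 36.8 and 40.6 RPKM in the libraries labelled Arid1a KO. Igtp measured 19.7, 19.6 and 20.1 RPKM against 26.9, 28.8 and 23.9 RPKM. Irgm2 measured 10.7, 10.2 and 10.4 RPKM against 12.8, 11.9 and 12.3 RPKM. All 3 rose without overlap, by modest amounts, with log2 fold changes of 0.29 ± 0.07, 0.40 ± 0.08 and 0.22 ± 0.06 (SE) and limma adjusted p-values of 0.00636, 0.00335 and 0.0162. Irgm2 was not called without control library C (adjusted p = 0.0520) or without Arid1a KO library A (adjusted p = 0.0605).

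Iigp1 went the other way in level. It measured 9.41, 7.35 and 8.39 RPKM in the controls and 6.69, 7.45 and 7.74 RPKM in the libraries labelled Arid1a KO, and the groups overlapped. Its log2 fold change was -0.17 ± 0.10 (SE, limma adjusted p = 0.161). Without control library B, the lowest control, it passed as a fall (-0.26, adjusted p = 0.0434), and after rescaling to the same sum the value was -0.02 (adjusted p = 0.908).

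The sorted cells were not free of leukocyte RNA, and its amount moved with the groups. All 7 macrophage markers (Adgre1, Csf1r, Cd68, Mrc1, C1qa, C1qb and C1qc) were called higher in the libraries labelled Arid1a KO, and their summed level ran from 1563 to 1861 RPKM in the controls and from 2271 to 2760 RPKM in the others. Ptprc, which encodes the CD45 on which the cells were gated, was 2.0-fold higher, at 30.3, 26 and 29.5 RPKM against 56.2, 58.1 and 57.6 RPKM. Of the 5 leukocyte markers, 4 were called higher and Cd52 lower, with sums from 759 to 790 RPKM and from 863 to 922 RPKM. The 5 dendritic cell markers summed to between 27.9 and 32.1 RPKM in the controls and between 73.0 and 77.7 RPKM in the others, nearly all of the gap being Itgax (25.3, 23.0 and 22.2 RPKM against 71.7, 70.1 and 66.5 RPKM), while Flt3, Xcr1, Clec9a and Zbtb46 were not called and the median log2 fold change of the 5 was -0.03. The 8 T and NK cell markers summed to between 30.8 and 32.3 RPKM and between 35.9 and 42.5 RPKM, with 4 of the 7 tested called higher (Cd3e, Cd4, Trac and Gzmb) and Nkg7 lower, from a mean of 6.72 to 2.54 RPKM (log2 fold change -1.13, limma adjusted p = 0.000121). Of 5 neutrophil markers 2 were called higher (sums from 329 to 467 RPKM against 368 to 611 RPKM), of 4 B cell markers 3 (8.70 to 10.3 RPKM against 10.7 to 20.01 RPKM) and of 5 endothelial markers 1 (31.6 to 43.3 RPKM against 41.5 to 50.2 RPKM), and 3 of 6 fibroblast markers were called lower (1683 to 2456 RPKM against 1401 to 1971 RPKM). Epithelial markers were abundant in both groups, with sums from 2978 to 3593 RPKM and from 3254 to 3431 RPKM, although Epcam and Krt18 were called lower and Krt5 higher, Krt18 not after rescaling to the same sum or quantile normalization. No listed marker was at 0 in every library. Over all genes tested, 27.5% were called higher and 29.6% lower. The dendritic and endothelial counts, 1 of 5 each, did not exceed the share called higher. Since bulk RNA was measured, more cells of a type and more RNA per cell cannot be told apart, and the part of these markers in the rise of the GBP and IRG genes was not tested in the epithelium.

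**Figure D2:**
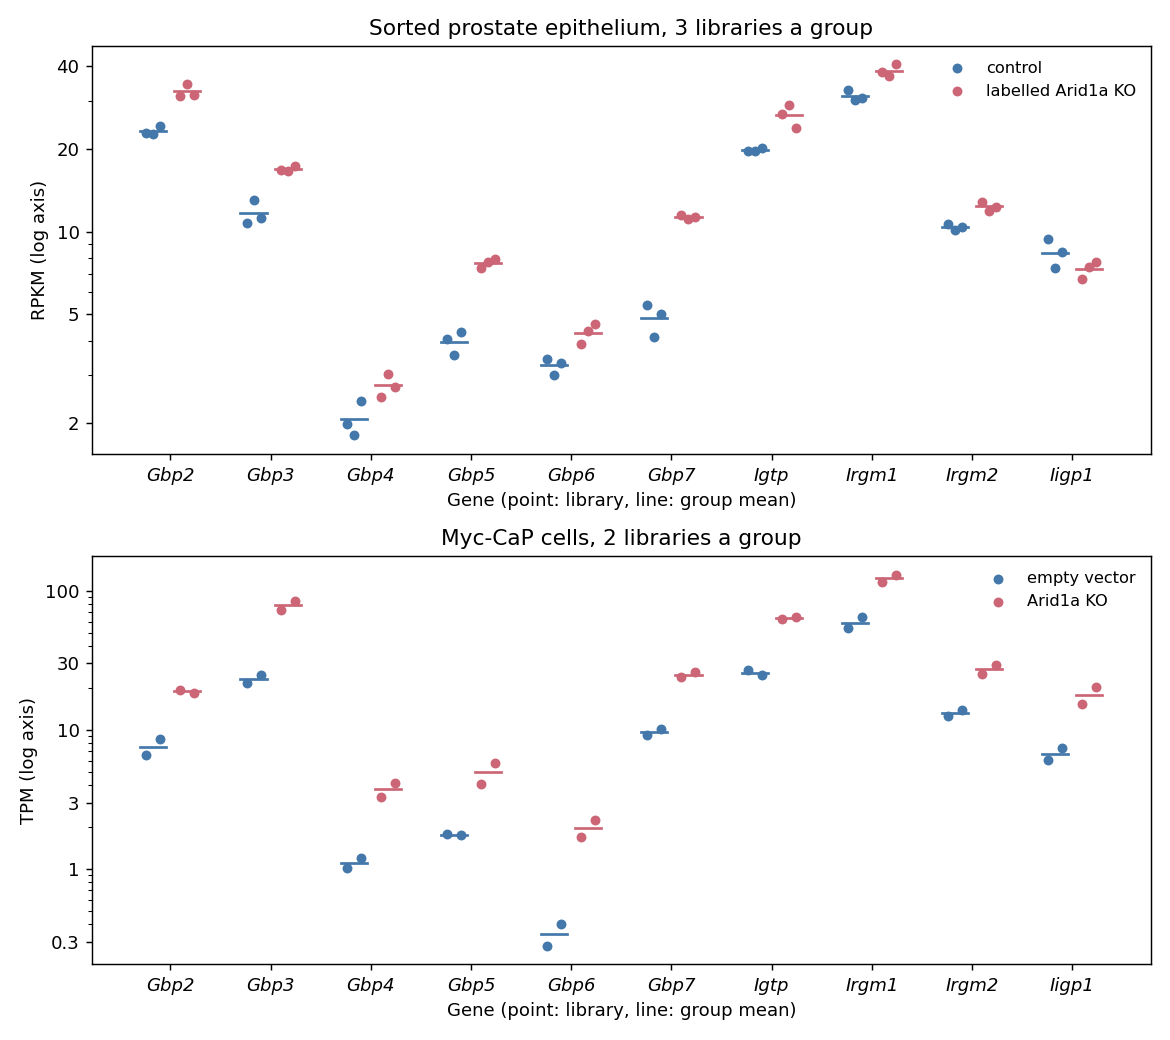
Level of the 10 genes in every library, in RPKM for the sorted epithelium (upper panel) and in TPM for Myc-CaP (lower panel), both on log axes, with 1 point per library and a line at each group mean. In the epithelium 9 genes lie above their controls without overlap while Iigp1 overlaps, and in Myc-CaP all 10 knockout pairs lie above their EV pairs.

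In Myc-CaP, a line in which macrophage and lymphocyte transcripts were near 0, all 10 members were higher in the Arid1a KO libraries, Iigp1 included. The group means differed by 2.06-fold (Irgm2) to 3.38-fold (Gbp3) for 9 members and by 5.82-fold for Gbp6, which rested on few reads. Every knockout library lay above every EV library for all 10. Of 13974 genes tested, 4.54% were called higher, and 24.9% had both knockout libraries above both EV libraries. The members had a median log2 fold change of 1.19, against -0.01 over all genes tested. All 10 members also passed the study's thresholds, against 4.62% of all genes called higher by them. The summed level of the 7 macrophage markers was at most 2.08 TPM in any library, with 6 of them below 0.5 TPM throughout, Ptprc was at 0 in 3 of the 4 libraries and at 0.0441 TPM in the other, and all 8 T and NK cell markers were below 0.5 TPM throughout. The 5 leukocyte markers summed to between 4.50 and 5.52 TPM with EV and between 3.91 and 4.06 TPM in the knockout, most of it Cd52, the dendritic, neutrophil, B cell and endothelial lists to at most 0.435 TPM, and the fibroblast list to between 7.07 and 37.3 TPM and between 5.89 and 16.5 TPM. The fibroblast range followed the library number. Col1a1 was at 0.211 and 19.4 TPM with EV and at 0.347 and 7.45 TPM in the knockout. Col1a2 and Col3a1 were also higher in library 2 of each group, whereas Pdgfra did not split this way and Dcn and Lum were below 0.5 TPM. The cause was not tested. Of the epithelial markers, Epcam was at 0 in both EV libraries and at 0 and 0.128 TPM in the knockout. Krt8 was at 1.07 and 0.79 TPM against 40.3 and 38.8 TPM. In sum the 6 epithelial markers ran from 0.849 to 1.16 TPM with EV and from 41.0 to 43.5 TPM in the knockout. The EV cells thus held little transcript of the listed epithelial markers, including Epcam, on which the epithelium was sorted.

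Gbp3 had the largest log2 fold change of the members in this line on the log2(TPM + 1) scale. It measured 21.8 and 24.7 TPM with EV and 72.6 and 84.4 TPM in the knockout, with a log2 difference of 1.71 ± 0.11 (SE, limma adjusted p = 0.00376). Gbp7 measured 9.10 and 10.2 TPM against 23.8 and 26.1 TPM, and Gbp2 measured 6.55 and 8.55 TPM against 19.3 and 18.5 TPM. The knockout pairs of both genes lay above the EV pairs by more than the spread within a pair, with log2 fold changes of 1.29 ± 0.10 (SE, limma adjusted p = 0.00585) and 1.23 ± 0.14 (SE, limma adjusted p = 0.0141).

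Gbp5, Gbp4 and Gbp6 were scarce in the line. Gbp5 measured 1.77 and 1.76 TPM with EV and 4.08 and 5.79 TPM in the knockout (limma adjusted p = 0.0405), from 47 and 41 reads against 102 and 133. Gbp4 measured 1.02 and 1.19 TPM against 3.28 and 4.17 TPM (limma adjusted p = 0.0294), from 47 and 48 reads against 142 and 166. Gbp6 measured 0.280 and 0.399 TPM against 1.69 and 2.26 TPM (limma adjusted p = 0.0454), from 12 and 15 reads against 68 and 84. For such genes the scale of log2(TPM + 1) compresses the change. It gave log2 fold changes of 1.09, 1.16 and 1.15 for Gbp5, Gbp4 and Gbp6, where limma-voom on the recovered reads, a fit added after the data were seen, gave 1.44, 1.74 and 2.51 (adjusted p of 0.0140, 0.00343 and 0.00615).

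The IRG members of the line were more abundant. Irgm1 was again the highest member, at 53.7 and 64.4 TPM with EV and 115.8 and 130.4 TPM in the knockout. Igtp measured 26.8 and 24.9 TPM against 62.5 and 65.0 TPM, and had the smallest limma adjusted p of the members (0.00262). Irgm2 measured 12.6 and 13.8 TPM against 25.2 and 29.2 TPM. The log2 fold changes of these 3 regulators were 1.05 ± 0.11, 1.27 ± 0.07 and 0.99 ± 0.10 (SE). The effector Iigp1 measured 6.07 and 7.43 TPM against 15.4 and 20.3 TPM, a log2 fold change of 1.28 ± 0.17 (SE, limma adjusted p = 0.0213). Its groups were apart here, unlike in the epithelium.

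The Myc-CaP calls rested on all 4 libraries. Leaving out 1 library left 1 group without a replicate, and calls over all genes also became far fewer. With any 1 left out, each member kept an unadjusted p under 0.05, and the lowest log2 fold change was 0.88 (Gbp5), but only 1 or 2 of the 10 passed the adjusted threshold. Without EV library 1 this was Igtp, without EV library 2 Gbp3 and Igtp, and without either knockout library Gbp3. With no filter on low values, 5 passed, namely Gbp3, Gbp7, Igtp, Irgm1 and Irgm2. Over all genes 358 of 25200 were then called in either direction, against 899 of 13974 as first fitted. With eBayes without a trend, Gbp5 (adjusted p = 0.0675) and Iigp1 (adjusted p = 0.0578) did not pass. Gbp4, Gbp5 and Gbp6 fell below a minimum mean of 5 TPM and were not tested with it.

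The order of the members by level was similar in the 2 systems at its ends and differed within. Irgm1 was the highest in each group of each system. In the epithelium controls mean levels then ran from Gbp2 (23.3 RPKM), Igtp (19.8), Gbp3 (11.7), Irgm2 (10.4) and Iigp1 (8.38) to Gbp7 (4.85), Gbp5 (3.96), Gbp6 (3.25) and Gbp4 (2.07), and of these neighbours only Gbp7 and Gbp5 overlapped in their libraries. In the libraries labelled Arid1a KO, Gbp7 (11.3 RPKM) stood above Gbp5 (7.70) without overlap, and Gbp5 overlapped Iigp1 (7.29). With EV in Myc-CaP the order below Irgm1 (59.1 TPM) was Igtp (25.8), Gbp3 (23.2), Irgm2 (13.2), Gbp7 (9.66), Gbp2 (7.55), Iigp1 (6.75), Gbp5 (1.77), Gbp4 (1.11) and Gbp6 (0.339), with an overlap between Gbp2 and Iigp1 only. After knockout Gbp3 (78.5 TPM) stood above Igtp (63.8), without overlap. Gbp2 was thus second among the members in the epithelium and sixth in the line. The tables were normalized separately, so levels were not tested across them.

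Of the 20 other GBP and IRG genes listed, 11 were tested in the epithelium, with a median log2 fold change of 0.56. Of these 11, 9 were called higher, where 27.5% of all genes tested were called higher. Gbp8, a neighbour of Gbp4, rose most, from 1.18, 1.25 and 1.21 RPKM to 3.33, 3.76 and 3.54 RPKM, a log2 fold change of 1.04. Gbp9 rose from 6.40, 5.41 and 5.97 RPKM to 8.0, 9.14 and 9.19 RPKM, and the effector IRG Ifi47 (Irgd) from 13.8, 15.5 and 13.8 RPKM to 23.6, 26.7 and 22.2 RPKM. The paralogs Tgtp1 and Tgtp2 (Irgb6 genes), between which reads can be split, had log2 fold changes of 0.59 and 0.58. Gm12250, 9930111J21Rik1, F830016B08Rik and Irgq were also higher, with log2 fold changes of 0.56, 0.79, 0.43 and 0.23, although Irgq was not called without any 1 of control B, control C, Arid1a KO A or Arid1a KO B. None was called lower by limma, none had an unadjusted p under 0.05 as a fall, and limma-voom called none lower. Gm5431 (0.13) and Gm4951 (0.19) did not pass, the latter only just passing after rescaling to the same sum (0.32, adjusted p = 0.0480). So among effector IRGs of the epithelium, Ifi47 and the Tgtp genes were called higher while Iigp1 was not, a contrast between genes that was not itself tested.

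In Myc-CaP only 7 of the 20 were tested, and 5 were called higher, where 4.54% of all genes tested were called higher. Gbp9 went from 2.78 and 3.32 TPM to 11.7 and 13.7 TPM, and Tgtp1 from 1.75 and 1.94 TPM to 8.53 and 8.62 TPM, with differences of 1.76 and 1.75 on the log2(TPM + 1) scale, where the highest member, Gbp3, was at 1.71. By the fold of group means, at 4.17 for Gbp9 and 4.65 for Tgtp1, both lay below the member Gbp6 (5.82). By this measure, among the genes tested, Gbp10 (6.12), Gm4951 (6.98) and Ifi47 (8.85), all low with EV, lay above Gbp6. Ifi47 was low at 0.51 and 0.258 TPM with EV and 3.85 and 2.94 TPM after knockout (log2 fold change 1.67). Gbp10 measured 0.485 and 0.588 TPM against 2.95 and 3.62 TPM, while in the epithelium it stayed between 0.121 and 0.297 RPKM and was not tested. The mice were C57BL/6 and the line FVB, and Gbp6 shares transcript sequence with Gbp10, so strain, cell type and read assignment cannot be told apart for this pair. Gm4951 rose from 0.321 and 0.256 TPM to 2.28 and 1.74 TPM. Irgq, at 9.08 and 9.27 TPM against 7.11 and 7.47 TPM, did not pass (log2 fold change -0.30, limma adjusted p = 0.165), nor did Gm12250. Gbp8, Gbp11, Gm5431 and Gvin1 were at 0 in both EV libraries and between 0.0145 and 0.443 TPM in the knockout. No call survived the removal of any 1 library, while 5 of the 7 kept an unadjusted p under 0.05 each time.

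**Figure D3:**
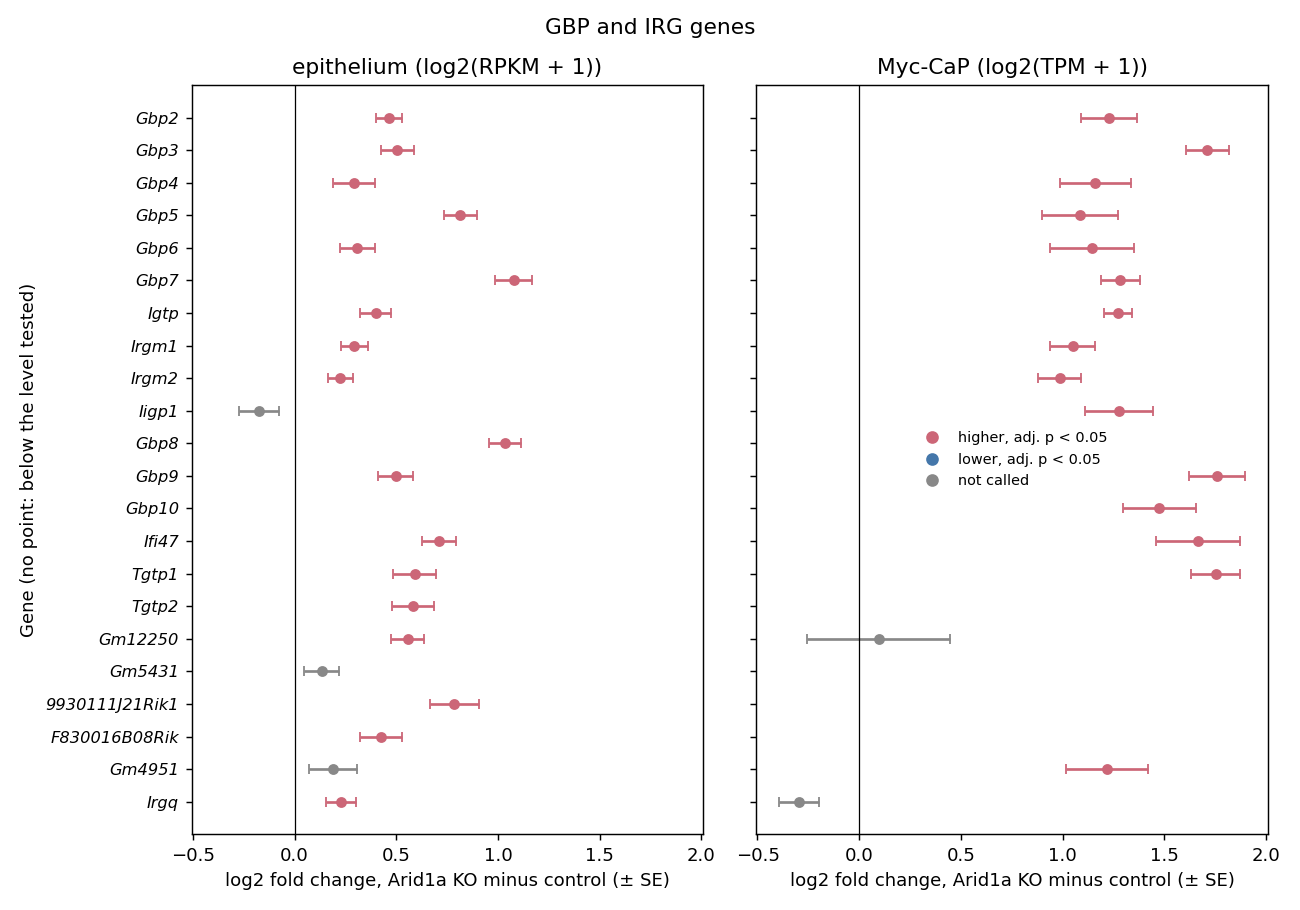
Log2 fold change of Arid1a KO over control, with its SE, for the 10 members and the 12 other GBP and IRG genes tested in at least 1 table, on log2(RPKM + 1) in the epithelium (left) and log2(TPM + 1) in Myc-CaP (right). Red marks genes called higher and grey genes not called, and no gene is called lower. Iigp1 lies at -0.17 in the epithelium and at 1.28 in Myc-CaP.

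The genes that signal from interferon to these GTPases did not move as 1 block. In the epithelium 16 of 26 genes tested were called, 13 higher and 3 lower, where 27.5% of all genes were called higher and 29.6% lower. The ligands were on the lower side. Ifng measured 1.45, 0.751 and 1.14 RPKM in the controls and 0.163, 0.222 and 0.143 RPKM in the libraries labelled Arid1a KO, a log2 fold change of -0.83 ± 0.13 (SE, limma adjusted p = 0.00149) without overlap. Ifnb1 measured 0.658, 2.07 and 1.17 RPKM against 0.384, 0.305 and 0.676 RPKM, with overlap (limma adjusted p = 0.0429). Its call was lost without any 1 of control B, control C, Arid1a KO A or Arid1a KO B and under 3 other settings. The receptor genes Ifngr1, Ifnar1, Ifnar2 and Il10rb were higher, with log2 fold changes of 0.43, 0.47, 0.21 and 0.58, and Ifngr2 (0.00) and Ifnlr1 (-0.04) did not pass. Those 2 values had no firm sign, and that of Ifnlr1 was 0.11 after rescaling to the same sum (adjusted p = 0.248). The call of Ifnar2 was lost without any 1 of control A, control B, Arid1a KO A or Arid1a KO C, with no filter and with no trend.

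Among the kinases and transcription factors of the epithelium, Jak2, which carries the signal of the interferon-gamma receptor, went from 8.46, 7.51 and 8.09 RPKM to 15.7, 19.3 and 16.2 RPKM. Its log2 fold change was 1.0 ± 0.09 (SE, limma adjusted p = 0.000121), and the groups were far apart. Jak1, Tyk2, Stat2, Irf2 and Irf8 rose by 0.49, 0.46, 0.39, 0.32 and 0.49 on the log2 scale, and Nlrc5, the activator of MHC class I genes, by 1.0, while Irf2 was not called without any 1 of control B, control C, Arid1a KO A or Arid1a KO C, with no filter, with no trend or after quantile normalization. Irf1, the factor that interferon-gamma itself induces, was lower, at 64.7, 62.0 and 67.9 RPKM against 48.0, 54.0 and 48.0 RPKM (log2 fold change -0.37 ± 0.07, SE, limma adjusted p = 0.00355), although after rescaling to the same sum it did not pass (-0.19, adjusted p = 0.0793). Irf7 (0.08) and Irf9 (0.00) did not pass, but after that rescaling both were called higher (0.26, adjusted p = 0.0179, and 0.18, adjusted p = 0.0358). Of the negative regulators Usp18 rose by 0.40, and Socs1 (-0.30) and Socs3 (0.20) did not pass, though Socs3 was called higher after rescaling (0.37, adjusted p = 0.00827) and Socs1 lower without Arid1a KO library B (-0.40, adjusted p = 0.0286).

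In Myc-CaP 6 of 20 signalling genes tested were called, all higher, where 4.54% of all genes were called higher and 1.89% lower. None had an unadjusted p under 0.05 as a fall, and limma-voom called 7 higher and none lower. Irf7 rose from 65.0 and 64.7 TPM to 201 and 209 TPM, a log2 fold change of 1.64 ± 0.05 (SE, limma adjusted p = 0.00135). Usp18, which shuts off the type I receptor, rose from 96.8 and 92.2 TPM to 250 and 264 TPM. Stat2, Jak2 and Irf9 had log2 fold changes of 0.98, 0.88 and 0.40, and Irf9 did not pass with no filter or with no trend. Irf1 measured 21.5 and 20.6 TPM against 23.5 and 23.3 TPM (log2 fold change 0.14, limma adjusted p = 0.324). The interferon genes themselves were scarce. Ifng, Ifnl2 and Ifnl3 were at 0 in all 4 libraries, and Ifnb1 was at 0 and 0.505 TPM with EV and at 0.314 and 0.171 TPM in the knockout. Each gap was wider than the spread within the pairs for the 6 called genes, yet with any 1 library left out only Irf7 and Usp18 passed the threshold.

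**Figure D4:**
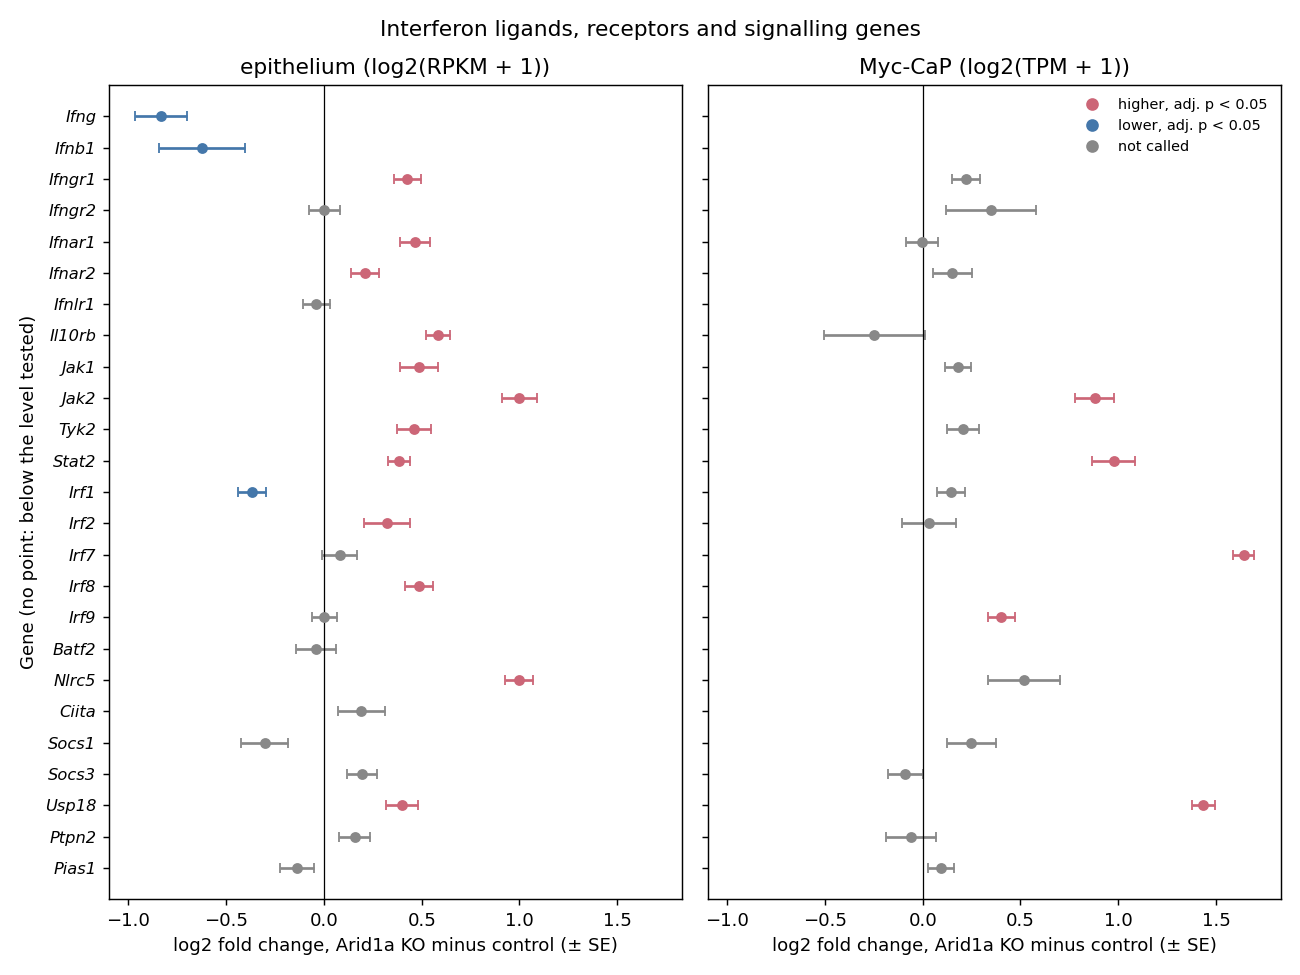
Log2 fold change of Arid1a KO over control, with its SE, for interferon ligands, receptors, kinases, transcription factors and negative regulators tested in at least 1 table, epithelium on the left and Myc-CaP on the right. Red marks genes called higher, blue genes called lower and grey genes not called. Stat2, Jak2 and Usp18 are called higher in both, Irf7 and Irf9 in Myc-CaP, and Ifng, Ifnb1 and Irf1 are called lower in the epithelium.

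The partners through which GBPs and IRGs work were listed as ubiquitin-like conjugation (the LC3 and GABARAP proteins and Atg enzymes, which place the GTPases on vacuoles), prenylation enzymes (which attach the lipid that some GBPs need) and the inflammasome genes downstream. In the epithelium 13 of 26 were called, 6 higher and 7 lower, where 27.5% of all genes were called higher and 29.6% lower, so that neither count exceeded the share over all genes. Their median log2 fold change was 0.01, and the values below describe single genes. Of the 5 LC3 and GABARAP genes 4 were lower, with Map1lc3a at 86.2, 103 and 92.1 RPKM against 39.1, 37.3 and 39.6 RPKM, and Map1lc3b, Gabarapl1 and Gabarapl2 at log2 fold changes of -0.47, -0.46 and -0.29. The prenylation genes Fnta, Fntb and Rce1 fell by 0.31, 0.30 and 0.35 on the log2 scale, but these and Gabarapl2 did not pass after rescaling to the same sum, nor did Gabarapl2 and Sqstm1 with no filter on low values. Higher were the inflammasome genes Nlrp3 (58.5, 53.1 and 58.5 RPKM against 166, 183 and 135 RPKM), Casp1, Casp4 and Aim2, with log2 fold changes of 1.48, 0.70, 0.39 and 0.54, and the adaptor Sqstm1 (0.28). With 1 library left out, the calls of Gabarapl2 (control B or C, Arid1a KO A or C), Fnta (Arid1a KO A or C) and Sqstm1 (any library but Arid1a KO C) were lost. Nlrp3, Casp1 and Aim2 are also leukocyte genes. In the same libraries the macrophage markers given above rose, while Cd52 and Nkg7 fell, and a link to the inflammasome genes was not tested. Rnf213, a giant ubiquitin ligase induced by interferon, rose from 20.9, 17.2 and 19.8 RPKM to 44.7, 45.1 and 41.7 RPKM (log2 fold change 1.15).

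In Myc-CaP 1 of 24 partner genes tested was called higher, a share close to the 4.54% of all genes. It was Rnf213, at 88.5 and 95.3 TPM with EV and 205 and 213 TPM after knockout (log2 fold change 1.18 ± 0.06, SE, limma adjusted p = 0.00258). Without either knockout library its adjusted p was 0.0539 or 0.0552. None was called lower, 3 had an unadjusted p under 0.05 as a fall, and limma-voom called 1 higher and none lower. Map1lc3a did not pass (37.9 and 38.3 TPM against 46.0 and 45.1 TPM, limma adjusted p = 0.0860), and Nlrp3 and Aim2 were under 0.5 TPM in every library.

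The genes most like the members were sought by the correlation, over the 10 libraries, between a gene's log2 value and the mean of the 10 members, each centred on its mean in its own table. Among 12112 genes tested in both tables, Gbp9 came first (Pearson r = 0.996), followed by Ddx60 (0.993), Macc1 (0.991), Ifi27l2a (0.989) and Syne1 (0.988). Ddx60, an interferon-induced helicase-like gene, had means of 5.02 ± 0.39 and 8.98 ± 0.15 RPKM (SD, n = 3) in the epithelium and of 5.58 ± 1.34 and 23.9 ± 1.81 TPM (SD, n = 2) in Myc-CaP. Ifi27l2a had means of 61.5 ± 1.13 and 91.05 ± 5.50 RPKM (SD, n = 3) and of 27.4 ± 5.50 and 115.6 ± 12.9 TPM (SD, n = 2). Libraries of a group share their step between conditions, so that any gene with similar rises in both systems scores high, and the values are a description. Within the members the correlation with the mean of the other 9 was lowest for Iigp1 (0.804), Gbp7 (0.890) and Gbp5 (0.919) and between 0.972 and 0.989 for the rest.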

How the data were processed

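The 10 RNA-seq samples form 4 groups by their genotype labels. Paired-end reads were aligned by the authors to GRCm38 and counted per gene (TopHat2 and HTSeq-count in the study's methods, HISAT2 and HTSeq in the submitters' processing notes). The deposited epithelium values are RPKM, which correct reads for gene length and library depth. The deposited Myc-CaP values are TPM, which sum to a constant in every library after correction for length. Series tables and per-sample tables were compared, and 0 values differed. Values were transformed to log2(value + 1). Each table was fitted alone, over genes whose mean reached 0.5, with limma 3.58.1 (lmFit, eBayes with a trend) in R 4.3.3, without covariates. P-values are two-sided, adjusted by Benjamini-Hochberg within a table, and called under 0.05. Fold changes on this scale understate the change of low genes. The fit and the recovery of reads were tested on simulated data.

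The members and lists were chosen with earlier results of these data known. The result of 1 listed gene is not reported here, though it enters the counts. Named genes are all members, the genes of each list that were called and others by role, and the 5 genes most like the members. Promoters came from RefSeq (GRCm38.p6) and were read for 7 of the 10 members. For Gbp4 and Gbp6 no entry was found, and that of Iigp1 was not looked up. Reads per gene were recovered as the smallest whole numbers in the ratios of the deposited values, for genes with a mean of at least 0.5. They describe counting depth, and PCR copies are included. The alternatives were a pseudocount of 0.1, no filter on low values, a minimum mean of 5, rescaling to the same sum, quantile normalization, no trend, the replicate letter or number as a block, each library left out and the study's thresholds. Limma-voom on the recovered reads was added after the data were seen. Same-lettered epithelium libraries did not deviate together (r of 0.041, 0.0094 and -0.057), so the letters were not taken as pairs.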

Additional observations from a re-analysis of the deposited data

Results flagged for a closer look

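Some listed genes had every Arid1a KO library on one side of the controls in the epithelium and on the other side in Myc-CaP. The difference between the systems was not tested, because the tables were normalized separately. No member was among them, since Iigp1 overlapped between the groups of the epithelium. Log2 fold changes in the epithelium and in Myc-CaP were 0.23 and -0.30 for Irgq, -0.37 and 0.14 for Irf1, -0.30 and 0.25 for Socs1, -1.25 and 0.25 for Map1lc3a, -0.47 and 0.0886 for Map1lc3b, -0.16 and 0.17 for Gabarap, and 0.12 and -0.13 for Icmt. Only the epithelium values of Irgq, Irf1, Map1lc3a and Map1lc3b passed the adjusted threshold as first fitted. After rescaling the epithelium to the same sum, Gabarap was at 0.021 and Icmt passed as a rise (0.29, adjusted p = 0.00940).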

How the results depend on the processing

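No called fold change among the genes run under the alternatives changed sign. Of those not called, 5 did. After rescaling to the same sum, Ifnlr1 (0.11) and Gabarap (0.021) turned positive in the epithelium. Without 1 library Ifngr2 ran from -0.049 to 0.061 and Irf9 from -0.031 to 0.041, being negative without control A, control C or Arid1a KO C. In Myc-CaP Gm12250 (0.095) was at -0.081 with voom and ran from -0.022 to 0.53 without 1 library. In the epithelium the count of members called stayed at 9 except without 1 library (7 to 9 of 10, the 9 without control B including Iigp1 as lower), with no filter or the replicate block (8, without Gbp4), with a minimum mean of 5 (7, Gbp4 and Gbp6 not being tested) and at the study's thresholds (2). The counts of the other family, signalling and partner genes called fell from 9, 16 and 13 to 4, 5 and 4 at the study's thresholds. There the 1.5-fold was taken on log2(RPKM + 1), which compresses the change of low genes. F830016B08Rik, Tgtp2, Gm12250, Aim2 and Il10rb missed it, although their group means differed by 2.06, 1.75, 1.57, 1.71 and 1.51-fold. The count of the family genes also fell to 4 with a minimum mean of 5. Leaving out 1 library gave 8 to 9, 13 to 16 and 10 to 13. Arid1a in the epithelium (0.25, limma adjusted p = 0.0540) passed as a rise with a minimum mean of 5 (0.25), the replicate block (0.25), quantile normalization (0.27), rescaling to the same sum (0.42), voom on the recovered reads (0.26) and without control library A (0.32), with 0.15 to 0.32 without 1 library. The median of all epithelium genes was -0.03, and 0.11 once libraries were rescaled to the same sum, when 64.9% of calls were higher in place of 48.1%. In Myc-CaP the members called fell from 10 to 5 with no filter, 8 with no trend (without Gbp5 and Iigp1), 7 with a minimum mean of 5 (Gbp4, Gbp5 and Gbp6 not being tested) and 1 to 2 without 1 library. The other family genes fell from 5 to 2 with no filter, 2 with a minimum mean of 5 and 0 without 1 library (5 with an unadjusted p under 0.05), the signalling genes from 6 to 2 without 1 library, and the partner genes from 1 to 0 to 1 without 1 library, but rose to 8 with the replicate block. Arid1a there did not pass without 1 library (-0.61 to -0.58). With the block, 2771 genes were called in Myc-CaP against 899 without it. Same-numbered Myc-CaP libraries correlated in their deviations at 0.195, which with 2 pairs does not settle a pairing. Col1a1, Col1a2 and Col3a1 were higher in library 2 of both groups. The causes of these shifts were not tested, except that a minimum mean of 5 tests fewer genes.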
